A study of Mus musculus with 6 samples.

Results

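Neurexins, neuroligins and Lrrtm proteins are adhesion molecules that meet across the synaptic cleft and help to organize the contact. The set described here holds 9 genes, Nrxn2, Nrxn3, Nlgn1, Nlgn2, Nlgn3, Lrrtm1, Lrrtm2, Lrrtm3 and Lrrtm4, taken by symbol out of 16060 rows of the deposited table. Each symbol stood on 1 row, and all 9 rows passed the filter on low values, a back-transformed level of at least 0.5 in at least 3 libraries, which left 13321 rows to test. The hippocampus of C57BL/6 mice had been sequenced in 6 libraries, 3 per group, each read here as 1 mouse. The MA group had been given methamphetamine in rising doses over 3 weeks, and the Control group saline. According to the study's methods the mice were adult males and were killed straight after behavioral tests. The comparison asks which hippocampal transcripts differ between these groups.

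Neurexins sit in the presynaptic membrane and reach through the cleft to several kinds of postsynaptic partner. Neuroligins and Lrrtms are postsynaptic partners of neurexins. Among them Nlgn1 and the Lrrtms are known mostly from excitatory synapses, Nlgn2 from inhibitory synapses, and Nlgn3 from both and from glia. Neurexin genes have several promoters and many alternative exons, and a level per gene adds all of these together.

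Values are on the log2 scale of RPKM + 1 as the table is read here, and a difference is the mean of the MA libraries minus the mean of the Control libraries. With the offset of 1 such a difference understates the change of low genes. The table holds no read totals. The depth behind each value is therefore unknown and no counting interval is given. Across the tested genes the mean Pearson correlation of a library with the others of its group was 0.991 to 0.993 for the Control libraries and 0.978 to 0.985 for the MA libraries, lowest for MA replicate 3. Genes are not independent, so these correlations only describe the libraries. The choroid plexus list, epithelial genes of the tissue that makes cerebrospinal fluid, stood apart between the groups, with all 6 of its genes higher in every MA library than in any Control library. Its summed RPKM was 65.5 to 420 in Control libraries and 1774 to 5075 in MA libraries, highest in MA replicate 3, and none of its genes was at 0. Ttr made up most of this sum in every library, and in MA replicate 3 it stood at the maximum that all libraries share. Ttr, Otx2 and Kcnj13 were highest in MA replicate 3, whereas Clic6, Kl and Folr1 were highest in MA replicate 2. The 4 endothelial markers summed to 46.4 to 48.9 and 52.3 to 64.0, also without overlap. Taken gene by gene, only Cldn5 stood apart. Pecam1, Flt1 and Tek overlapped between the groups and were lowest in MA replicate 3. The lists of excitatory neurons, of neurons in general and of astrocytes were lowest in MA replicate 3. Its excitatory neuron list (5 genes) summed to 1159 against 1335 to 1678 in the other libraries, its general neuron list (4 of 5 genes in the table) to 1334 against 1571 to 1760, and its astrocyte list (5 genes) to 246 against 303 to 349. Except for Neurod2, Stmn2 and Aldh1l1, each gene of these lists in the table was lowest in MA replicate 3. The 5 thalamic markers summed to 44.3 and 52.2 in MA replicates 1 and 2 and to between 16.9 and 24.7 in the others. The interneuron, oligodendrocyte, oligodendrocyte precursor and microglia lists overlapped between the groups. The 8 markers of hippocampal subfields summed to 255 to 313 in Control and 245 to 269 in MA libraries, lowest in MA replicate 3. The labelled tissue was thus represented in every library. By gene, only Rora among the thalamic markers and Prox1 and Calb1 among the subfield markers were lowest in MA replicate 3. In tissue RNA, fewer cells of a type and less RNA per cell cannot be told apart. The part of these shifts in the levels of the 9 genes was not tested.

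**Figure D1:**
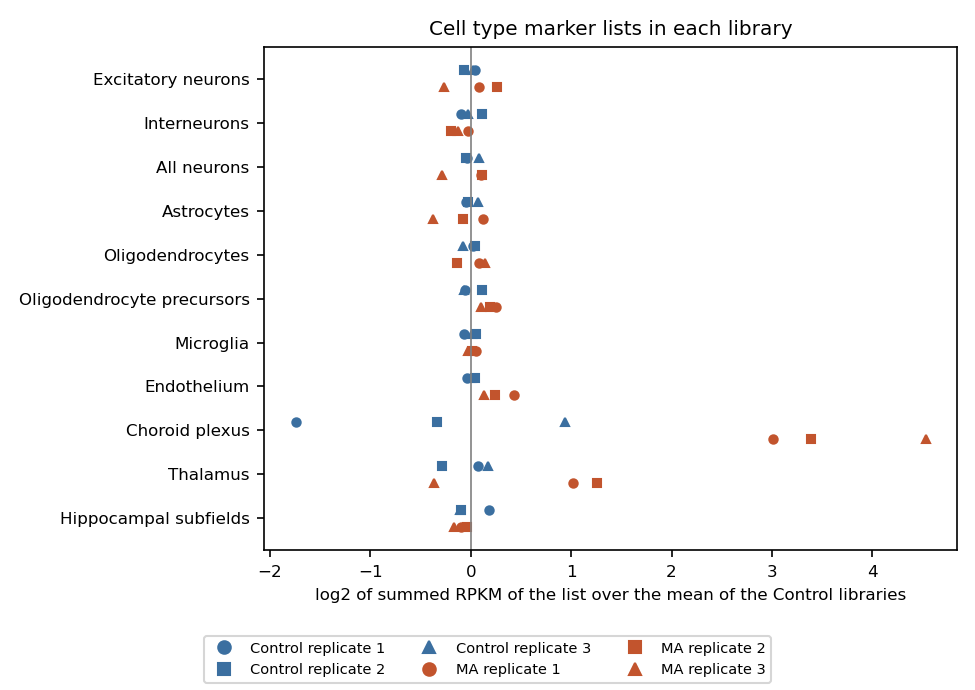
Summed RPKM of each cell type marker list in each library, as log2 of its ratio to the mean of the Control libraries (horizontal axis), with 1 symbol per replicate number, Control in blue and MA in orange. The choroid plexus list lies higher in all 3 MA libraries. MA replicate 3 is lowest for the excitatory neuron, general neuron, astrocyte, thalamic and hippocampal subfield lists, but not for interneurons.

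All 9 genes were expressed in each of the 6 libraries, over a wide range of levels per length. Nrxn2 was the highest, with a mean of 143 RPKM over the 6 libraries, above 95.8% of the tested genes. Nlgn2 and Lrrtm1 followed with 45.4 and 37.3 RPKM. Nrxn3 and Nlgn3, at 17.2 and 14.7 RPKM, overlapped each other over the libraries and stood in this order in 5 of 6. Lrrtm4, Nlgn1 and Lrrtm2 formed a close group at 9.72, 8.31 and 7.80 RPKM. Within that group Lrrtm4 was above Nlgn1 in 6 of 6 libraries although their ranges overlapped, whereas Nlgn1 was above Lrrtm2 in only 3 of 6. Lrrtm3 was the lowest, at 4.33 RPKM, above 32.4% of the tested genes. The remaining neighbours in this order did not overlap.

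No organizer gene was called at an adjusted p-value under 0.05 (limma, Benjamini-Hochberg over 13321 genes), where 0.263% of all tested genes were called. At an unadjusted p-value under 0.05 the count was 1 of 9, Lrrtm2, where 10.4% of all tested genes stood below that value. Of the differences, 4 were above and 5 below 0, with a median of -0.0012, and the median over all tested genes was -0.010. The groups did not overlap for Lrrtm2, with MA lower, and for Nlgn2, with MA higher, where 10.2% of all tested genes had MA lower and 7.32% had MA higher without overlap. Each 95% confidence interval of the 9 differences lay between -0.58 and 0.53 on the log2 scale. For all 9 genes the SD was larger among the MA than among the Control libraries, as it was for 71.1% of the tested genes. With 3 libraries in each group the smallest two-sided p-value of an exact permutation test is 0.1. The labels give no more of the replicates than a group and a number.

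**Figure D2:**
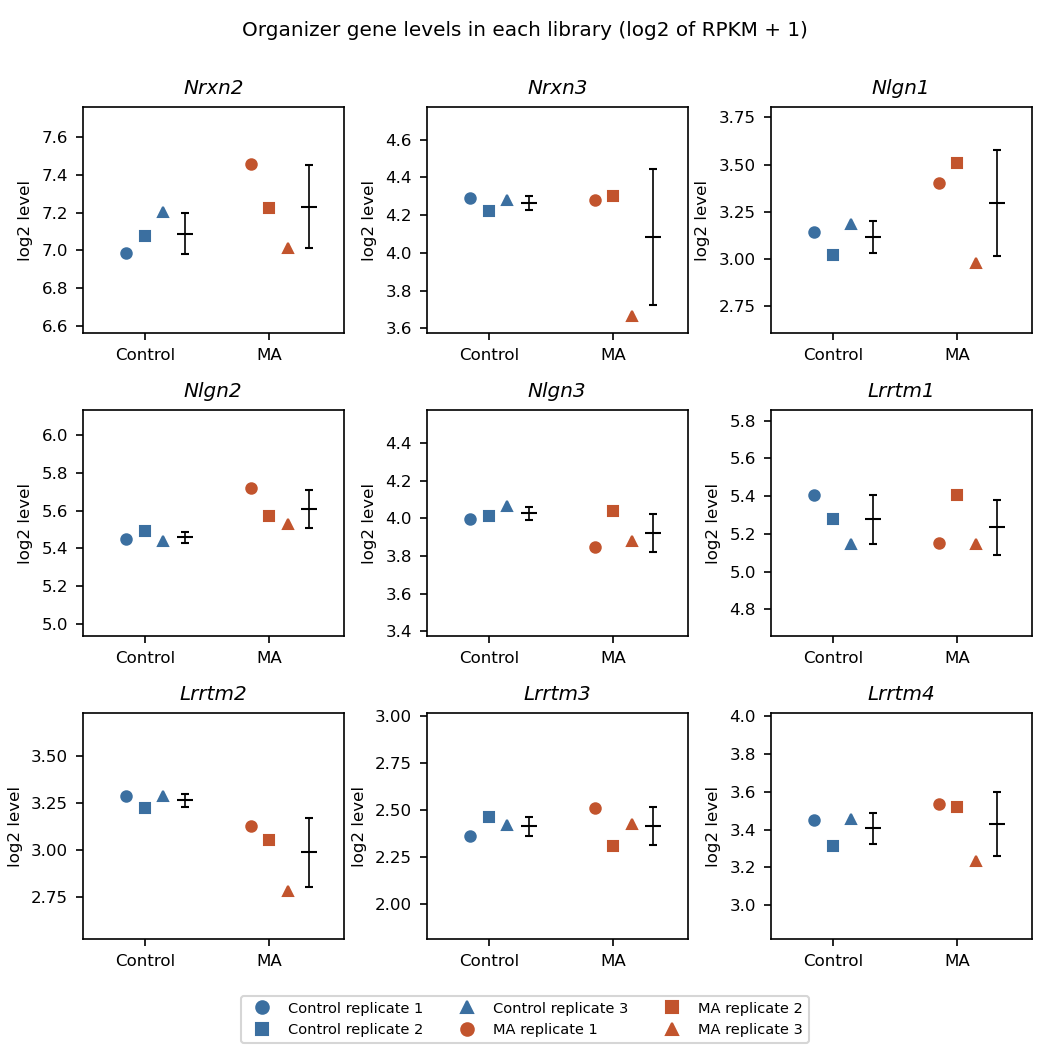
Level of each organizer gene in each library (vertical axis, log2 of RPKM + 1, with the same height of 1.2 in every panel), with Control in blue and MA in orange, 1 symbol per replicate number, and the mean with its SD (n = 3) in black. The groups do not overlap for Nlgn2 and Lrrtm2, and MA replicate 3 is the lowest library for Nrxn3, Nlgn1, Lrrtm2 and Lrrtm4.

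Of the presynaptic genes, Nrxn2 (ENSMUSG00000033768) is a plus-strand gene of chromosome 19, from 6418731 to 6544169 in GRCm38, the build of all coordinates given here. The log2 level of Nrxn2 was 6.99, 7.07 and 7.20 in Control replicates 1 to 3 and 7.46, 7.23 and 7.01 in MA replicates 1 to 3. MA replicates 1 and 2 were above every Control library, and MA replicate 3 was inside their range. The difference was 0.15 (standard error 0.12, 95% interval -0.14 to 0.43, limma adjusted p = 0.741). It was 0.25 without MA replicate 3 (adjusted p = 0.179 from limma) and 0.033 without MA replicate 1, the library with the highest value. The annotation places exons of Slc22a12, a kidney urate transporter, over 682 exonic bases of Nrxn2 on the other strand. In this table Slc22a12 was under the filter on low values.

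Nrxn3 (ENSMUSG00000066392), on chromosome 12 from 88722876 to 90334935, has the longest span of the 9 genes, 1612060 bases. In log2 terms it measured 4.29, 4.22 and 4.28 in the Control libraries and 4.28, 4.30 and 3.67 in MA replicates 1 to 3. The first 5 of these values lie close together, and MA replicate 3 stands alone below them. The difference was -0.18 (standard error 0.17, interval -0.58 to 0.22, limma adjusted p = 0.773), and it turned to 0.028 without MA replicate 3, with an interval of -0.14 to 0.19. On the linear scale Nrxn3 was at 11.7 RPKM in that library and between 17.6 and 18.7 RPKM in the others.

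Among the neuroligins, Nlgn2 (ENSMUSG00000051790), the adhesion protein of inhibitory synapses, lies on chromosome 11 from 69823122 to 69837784 on the minus strand. The log2 levels of Nlgn2 were 5.45, 5.49 and 5.44 in the Control libraries and 5.72, 5.57 and 5.53 in the MA libraries. Every MA library was above every Control library, by 0.037 at the closest. The mean was 5.46 ± 0.03 in Control and 5.61 ± 0.10 in MA (SD, n = 3 each). The difference was 0.15 (standard error 0.08, interval -0.04 to 0.34, limma adjusted p = 0.598), and the exact permutation test gave p = 0.1, the smallest it can give here. Without MA replicate 1, the highest library, the difference was 0.090 (limma adjusted p = 0.804). On the linear scale the means were 43.0 and 47.8 RPKM, 11.1% apart.

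Nlgn1 (ENSMUSG00000063887), which is enriched at excitatory synapses, lies on chromosome 3 from 25426215 to 26332460. In the Control libraries its log2 level was 3.14, 3.02 and 3.18, and in MA replicates 1 to 3 it was 3.40, 3.51 and 2.98. MA replicates 1 and 2 were the highest libraries and MA replicate 3 the lowest. The difference was 0.18 (standard error 0.15, interval -0.17 to 0.53, limma adjusted p = 0.732). Without MA replicate 3 it was 0.34 (standard error 0.09, interval 0.12 to 0.55, limma adjusted p = 0.0976), the smallest adjusted p that leaving out a library gave for any of the 9 genes. Without MA replicate 2, the highest library, it was 0.075 (limma adjusted p = 0.939). The excitatory neuron and thalamic lists were also highest in MA replicates 1 and 2 and lowest in MA replicate 3, with sums of 1478, 1678 and 1159 RPKM and of 44.3, 52.2 and 16.9 RPKM in MA replicates 1 to 3, and their part in the difference was not tested.

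Nlgn3 (ENSMUSG00000031302), a neuroligin of both kinds of synapse, lies on the X chromosome from 101299168 to 101325963. The Control libraries had log2 levels of 3.997, 4.014 and 4.065 and the MA libraries 3.850, 4.040 and 3.877. MA replicates 1 and 3 were below every Control library, and MA replicate 2 was among them. The difference was -0.10 (standard error 0.09, interval -0.31 to 0.10, limma adjusted p = 0.744), and it was between -0.16 and -0.067 when each library was left out in turn. A processed transcript, Gm21986, shares 3823 exonic bases with Nlgn3 on the same strand, and it has no row here, so reads that fit both could have been assigned to either or dropped.

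Of the Lrrtm genes, Lrrtm2 (ENSMUSG00000071862) had the lowest unadjusted p-value of the set. Lrrtm2 is a leucine-rich repeat protein that binds neurexins and helps to hold AMPA receptors at excitatory synapses. It lies on chromosome 18 from 35209003 to 35215024, on the minus strand inside Ctnna1, an alpha-catenin gene of the plus strand. Its log2 levels were 3.29, 3.23 and 3.28 in the Control libraries and 3.13, 3.05 and 2.78 in MA replicates 1 to 3. Every MA library was below every Control library, by 0.099 at the closest, and MA replicate 3 was the lowest. The means were 3.27 ± 0.03 in Control and 2.99 ± 0.18 in MA (SD, n = 3 each). The difference was -0.28 (standard error 0.11, interval -0.54 to -0.013), with an adjusted p of 0.458 from limma, and it was the only one of the 9 whose interval left out 0. On the linear scale the MA mean was 6.98 RPKM and the Control mean 8.62 RPKM, a change of -19.1% that did not pass the test. Without MA replicate 3 the difference was -0.18 (interval -0.36 to 0.013, limma adjusted p = 0.241), a smaller size by more than 1.5 times. Lrrtm2 and Ctnna1 share 95 exonic bases on opposite strands, and the study's text does not say whether counting used strand. Ctnna1 had a difference of -0.020 (standard error 0.087, limma adjusted p = 0.958).

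Lrrtm1 (ENSMUSG00000060780), on chromosome 6 from 77242689 to 77257791, is likewise nested on the other strand of a catenin gene, Ctnna2, and shares no exonic base with it. Its log2 levels were 5.41, 5.28 and 5.15 in the Control libraries and 5.15, 5.40 and 5.15 in the MA libraries, over nearly the same range. The difference was -0.042 (standard error 0.11, interval -0.29 to 0.21, limma adjusted p = 0.934). Lrrtm3 (ENSMUSG00000042846), on chromosome 10 from 63928472 to 64090277 inside Ctnna3, had the smallest difference of the set. Its levels were 2.36, 2.46 and 2.42 in the Control libraries and 2.51, 2.31 and 2.42 in the MA libraries. The MA libraries surround the Control libraries, and the difference between the means was -0.0012 (standard error 0.10, interval -0.23 to 0.23, limma adjusted p = 0.998). Ctnna3, with no exonic base in common, was under the filter on low values.

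Lrrtm4 (ENSMUSG00000052581), known from excitatory synapses on dentate granule cells, lies on chromosome 6 from 80018877 to 80810143. Its log2 levels were 3.45, 3.31 and 3.46 in the Control libraries and 3.54, 3.52 and 3.23 in MA replicates 1 to 3. MA replicates 1 and 2 were above all Control libraries and MA replicate 3 below them, the same arrangement as for Nlgn1. The difference was 0.023 (standard error 0.11, interval -0.24 to 0.29, limma adjusted p = 0.965), or 0.12 without MA replicate 3 (limma adjusted p = 0.422). Lrrtm4 shares 1543 exonic bases with the antisense gene Gm4409 and Nlgn1 shares 1229 with the antisense gene A830092H15Rik, neither of which has a row, so without strand the reads of such partners cannot be told apart.

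**Figure D3:**
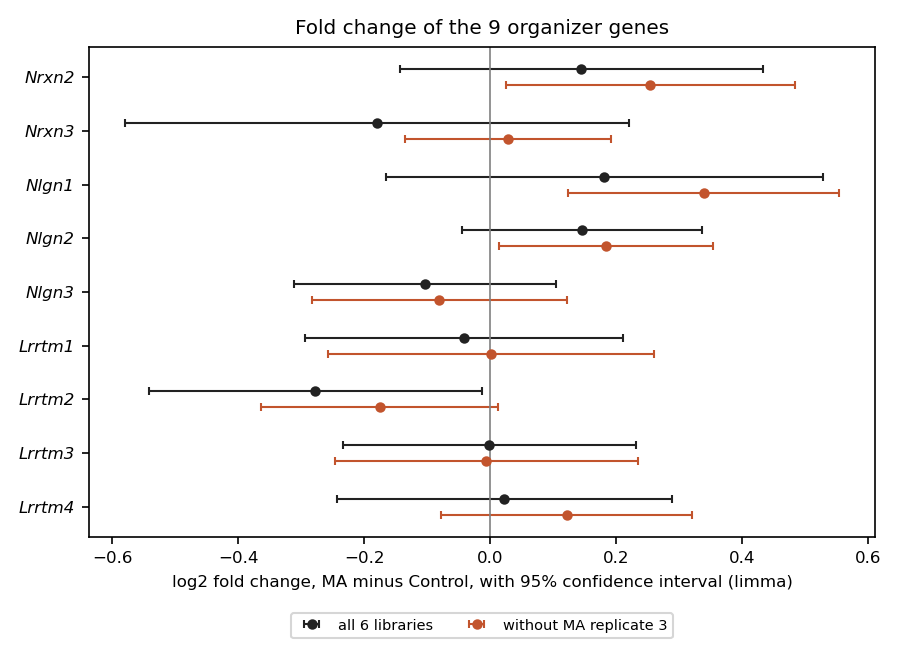
Log2 fold change of each organizer gene, MA minus Control (horizontal axis), with its 95% confidence interval from limma, over all 6 libraries in black and without MA replicate 3 in orange. With all libraries the interval of Lrrtm2 alone lies on one side of 0, and without MA replicate 3 those of Nrxn2, Nlgn1 and Nlgn2 do, but no adjusted p-value was under 0.05 in either fit.

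Of the 9 genes, 4, namely Nrxn3, Nlgn1, Lrrtm2 and Lrrtm4, had their lowest value in MA replicate 3. That library was the lowest for 29.8% of the tested genes, and it was the highest for 0 of the 9, beside 25.6% of the tested genes. With it left out, 3 of the 9 genes had an unadjusted p-value under 0.05 (limma), Nrxn2, Nlgn1 and Nlgn2, all with MA higher, beside 23.4% of the tested genes in that fit, and again 0 were called after adjustment. Lrrtm2 was no longer among them.

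Within a family, levels per length can be set as shares of the family's sum, which do not depend on a common scaling of a library. A normalization of another form would still alter them, and the steps used on these values are not described. Among the 3 neuroligins, Nlgn2 made up 65.2% ± 1.2 of the summed RPKM in Control and 67.4% ± 2.7 in MA libraries (SD, n = 3 each), and Nlgn1 11.6% ± 0.8 and 12.5% ± 2.0. The share of Nlgn3 was 22.85%, 22.86% and 23.79% in Control replicates 1 to 3 and 17.96%, 21.36% and 20.82% in MA replicates 1 to 3, without overlap. Among the 4 Lrrtm genes, Lrrtm1 held 62.6% ± 2.4 and 63.5% ± 3.0 (SD, n = 3 each). The share of Lrrtm2 was 13.64%, 14.02% and 15.20% in the Control libraries and 13.43%, 11.59% and 11.09% in the MA libraries, also without overlap, though MA replicate 1 came close to the lowest Control library. The shares of Nlgn1, Nlgn2, Lrrtm1, Lrrtm3 and Lrrtm4 overlapped between the groups. The shares were not tested, because they are built from the levels above. No shares were computed for other families, so how often they stand apart is not known here. By level, 10.2% of all tested genes had MA lower without overlap. The level of Nlgn3 itself overlapped between the groups, while Nlgn2, the largest part of its family's sum, was higher in every MA library.

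**Figure D4:**
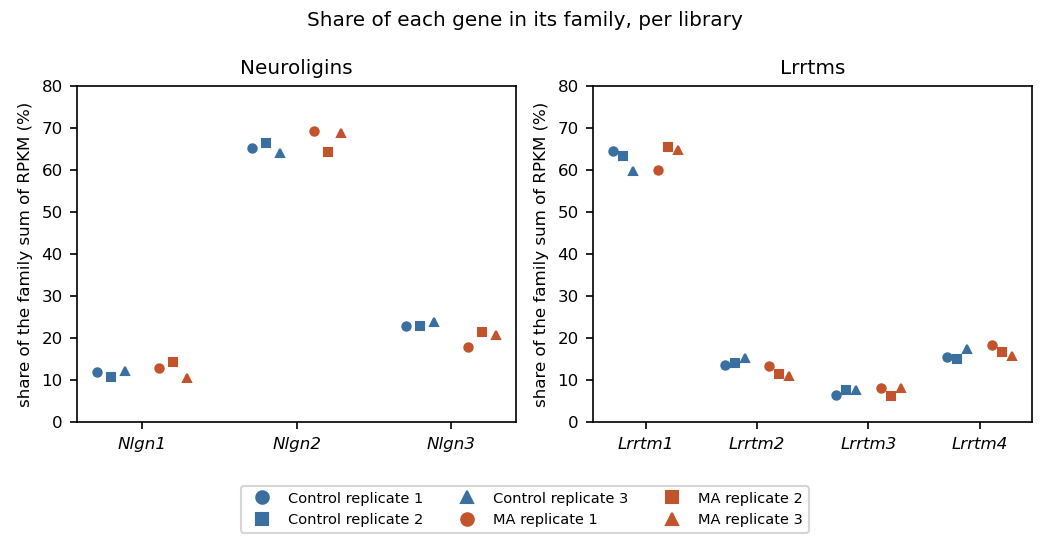
Share of each neuroligin and each Lrrtm gene in the summed RPKM of its family (vertical axis, percent) in each library, with Control in blue and MA in orange and 1 symbol per replicate number. Nlgn2 and Lrrtm1 hold most of their families in every library. The shares of Nlgn3 and Lrrtm2 are lower in each MA library than in each Control library. The shares were not tested, and the level of Nlgn3 itself overlaps between the groups.

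Other genes of trans-synaptic adhesion were listed from general knowledge, 67 in all, and 63 of them were tested. None was called at an adjusted p-value under 0.05 (limma), and 8 had an unadjusted p-value under 0.05, 6 with MA higher and 2 with MA lower, which is 8 of 63 beside the 10.4% of all tested genes. Of the 63 differences 39 were above 0, with a median of 0.054. Over all tested genes 6296 of 13321 were above 0, with a median of -0.010. The part with most of the low p-values was the list of LAR-type receptor phosphatases, presynaptic adhesion receptors that parallel the neurexins, and their ligands. It also held adhesion genes that are neither, such as the netrin-G genes Ntng1 and Ntng2. In this list 5 of 21 tested genes had an unadjusted p-value under 0.05 (limma), Ntng2 among them, all with MA higher. Its median difference was 0.054. Ntrk3, a neurotrophin receptor that also binds PTPσ, was 4.17 ± 0.06 in Control and 4.52 ± 0.06 in MA libraries (SD, n = 3 each), a difference of 0.35 (standard error 0.08, limma adjusted p = 0.219). Lrfn1, a synaptic adhesion-like molecule, differed by 0.31 (standard error 0.12, limma adjusted p = 0.417). For Ntrk3 and Lrfn1 each MA library was above each Control library.

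Of the 10 latrophilins, teneurins and FLRTs, another trans-synaptic set, 1 had an unadjusted p-value under 0.05 with MA lower and 1 with MA higher, and the median difference was 0.10. Adgrl2, a latrophilin, had a difference of -0.38 (standard error 0.13, limma adjusted p = 0.383) and Tenm4, a teneurin, one of 0.46 (standard error 0.17, limma adjusted p = 0.417). Among 21 tested intracellular and membrane partners of the 3 families the median was -0.019. Lin7b, a small scaffold protein bound to the neurexin partner Cask, was 7.13, 7.15 and 7.06 in the Control libraries and 6.58, 6.69 and 7.04 in MA replicates 1 to 3, a difference of -0.34 (standard error 0.12, limma adjusted p = 0.408). Igsf21, a neurexin-binding protein of inhibitory synapses, had one of 0.36 (standard error 0.16, limma adjusted p = 0.509). Without MA replicate 3, Lin7b, Tenm4 and the LAR-type receptor gene Ptprf were called, with differences of -0.48, 0.65 and 0.55 (limma adjusted p = 0.0307, 0.0463 and 0.0421). In that fit 246 of 13192 tested genes were called.

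The 8 tested secreted partners of neurexins had the highest median of these lists, 0.17, with no unadjusted p-value under 0.05. Cbln4, a cerebellin, was 1.75, 2.02 and 2.23 in the Control libraries and 2.83, 2.73 and 1.95 in MA replicates 1 to 3, and Cbln2, another cerebellin, was 1.38, 1.79 and 2.33 in Control and 2.75, 2.37 and 1.86 in MA replicates 1 to 3. Their differences were 0.50 and 0.50 (limma adjusted p = 0.546 and 0.616). For these genes MA replicates 1 and 2 were high and MA replicate 3 was inside the Control range. The sum of the thalamic list was also highest in MA replicates 1 and 2, as given above, and its part in these values was not tested. Of the 3 neurexin splicing regulators, the RNA-binding proteins Khdrbs1 and Khdrbs3 had differences of -0.14 and -0.15 (limma adjusted p = 0.572 and 0.684).

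**Figure D5:**
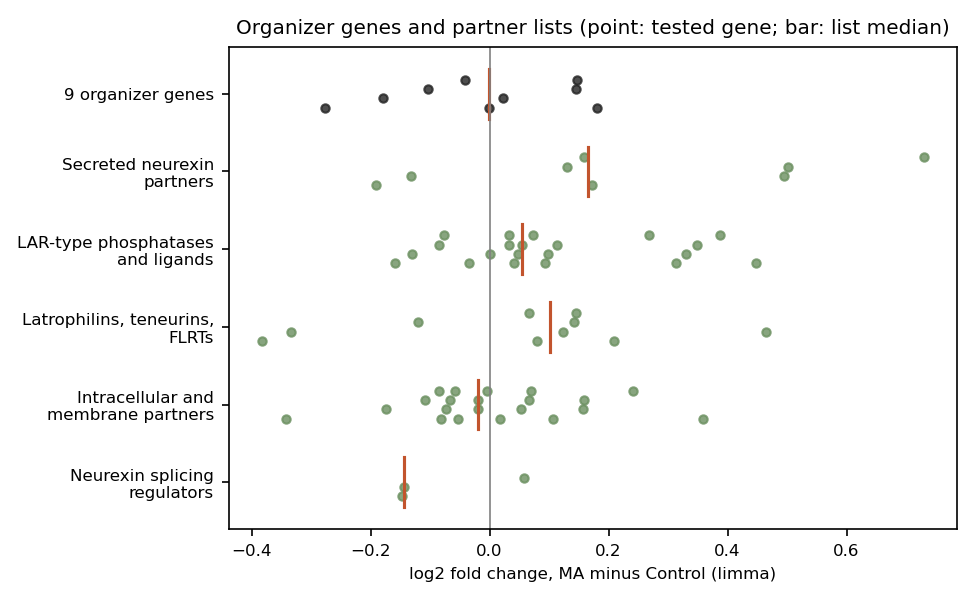
Log2 fold change, MA minus Control (horizontal axis, limma), of the 9 organizer genes and of the tested genes of each partner list, with 1 point per gene and an orange bar at the list median. The organizer genes lie between -0.28 and 0.18, inside the range of the partner genes, which runs from -0.38 to 0.73.

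Over the 6 libraries, Nlgn1 and Lrrtm4 were the most alike of the 36 pairs of organizer genes (Pearson r = 0.889), followed by Nrxn3 with Lrrtm2 (r = 0.855). Nlgn2 with Nlgn3 (r = -0.709) and Lrrtm1 with Lrrtm3 (r = -0.756) varied in opposite directions most. With 6 libraries that share a normalization, and with MA replicate 3 low for several genes, these values are descriptions only. Of 13304 other tested genes, the one most like an organizer gene over the 6 libraries was Scd1 for Nrxn2, Scn2b for Nrxn3, Grsf1 for Nlgn1, Dnmt1 for Nlgn2, Gdf10 for Nlgn3, Wdr82 for Lrrtm2, Sgpl1 for Lrrtm3 and Stxbp5l for Lrrtm4, with r from 0.983 to 0.999. Up to 764 genes reached r over 0.9 with a single organizer gene.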

How the data were processed

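The deposited table, named as RPKM, gives an Ensembl identifier, a symbol and 6 values per row. The values as the authors deposited them lie on a log2 scale, read as log2 of RPKM + 1, with the same maximum in every library, so that they had been log-transformed and normalized between libraries by steps that the sources do not describe. At the low end MA replicate 3 differed, with no value at 0 and a lowest value of 0.0002. Each of the other libraries had between 259 and 437 values at 0. The paper names Hisat2, featureCounts and DESeq2, whereas the submitters' processing notes list Bowtie 0.12.2 and the builds mm8 and mm9. The sources also name different RNA and library kits. Column names gave the group and replicate number of all 6 columns. The levels were tested as deposited with limma 3.58.1 in R 4.3.3 (eBayes with a trend, Benjamini-Hochberg over the tested rows), since counts for the DESeq2 test of the methods are not used here. For each organizer gene an exact permutation test (two-sided, scipy 1.17.1) was added. The limma step was checked on simulated data. The alternatives were other pseudocounts, no or a stricter filter, median centring, quantile normalization, no trend, sample quality weights, the replicate block and leaving out each library. RPKM values in the text are back-transformed (2 to the power of the value, minus 1). Coordinates come from GENCODE release M21 (GRCm38) by Ensembl identifier, for location only. The members, partner lists and marker lists were chosen with earlier results of these data known. Named partner genes are those called or, up to 2 per list, those with the smallest p. Ptprf and Ntng2 were named after their values were seen. The gene most like Lrrtm1 is not reported here.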

Additional observations from a re-analysis of the deposited data

How the results depend on the processing

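No organizer gene was called under any of 15 alternatives, and the smallest adjusted p-value among them was 0.0783, for Nlgn1 with limma's sample quality weights. Of 134 alternative values of the organizer genes, 123 kept their direction. Sample quality weights turned Nrxn3 to 0.0074 and Lrrtm1 to 0.051. Leaving out each library in turn gave -0.29 to 0.028 for Nrxn3, -0.13 to 0.022 for Lrrtm1, -0.049 to 0.052 for Lrrtm3 and -0.032 to 0.12 for Lrrtm4, and in all 4 the sign depended on the library left out. The number of genes called over the whole table, 35 (22 higher, 13 lower), was 3 with no filter, 586 with sample quality weights and 0 to 246 with each library left out. With a pseudocount of 0.1 it was 27, of which 14 were higher and 13 lower. The partner lists, with 0 called, gave 7 with sample quality weights and 0 to 3 with each library left out. The cause of these shifts was not tested. A replicate block left 15 genes called over the whole table and no organizer gene, whose limma adjusted p-values were then between 0.837 and 0.999. Deviations of same-numbered libraries correlated at -0.197, -0.242 and -0.337, and nothing in the labels pairs the mice. A minimum mean of 5 left 8 of the 9 organizer genes to test. The deposited table gives no read totals, so counting error is unknown.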
